A study of Mus musculus with 11 samples.

Results

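The genes described here are 51 mouse genes of mitosis and chromosome segregation, taken by symbol from a list of cyclins, mitotic kinases, checkpoint, kinetochore, spindle, condensin and cytokinesis genes. Of the 51, 50 were measured, among 18193 genes in all. Ccnb1, the main mitotic cyclin, had no probe set with 1 gene symbol in the annotation table and was not analysed here. Each gene was read from 1 probe set, the one with the highest mean over the 11 arrays.

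The cells were macrophages grown from bone marrow of C57BL/6 mice that lacked Rag1 (Rag1-/-) and were 7 weeks old. All groups carried this genotype, which removes mature B and T cells, and all were kept in culture for 7 days and then sorted for F4/80, a surface protein of mouse macrophages. M1 cells (3 arrays) were cultured with IFN-g and received LPS over the last 24 h, M2a cells (3 arrays) were cultured with IL-4 and IL-13, and M0 cells (5 arrays) had no added cytokine. RNA of each sample was read on an Affymetrix mouse expression array, and the values are log2 values as deposited. M1 is the classically activated and M2a the alternatively activated state of the field's nomenclature, and the study set each against M0. Whether the numbered arrays of a group stand for separate mice is not said in the labels. The p-values therefore reflect the spread among these arrays alone, and that spread may be technical.

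Mitosis is driven by Cdk1 bound to A- and B-type cyclins. Aurora and Polo-like kinases build the spindle, kinetochores attach chromosomes to it, and the spindle checkpoint holds back the anaphase-promoting complex until attachment is complete. Most of these genes are transcribed in G2 and M phase through a shared promoter layout, in which CCAAT boxes bound by NF-Y lie upstream of a cell cycle genes homology region (CHR) bound by the MuvB complexes DREAM and B-MYB-FOXM1. Their mRNAs are therefore abundant in dividing cells and scarce in resting ones. Bone-marrow progenitors divide as they mature in culture, and mature macrophages divide little.

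Promoters of 6 members are shown because they hold these motifs or lack them in genes whose levels are described below. Each line gives the 100 bases before the RefSeq transcription start in GRCm38.p6, read 5′ to 3′ on the gene's strand, with CHR letters (TTTGAA or its reverse complement TTCAAA) and CCAAT letters (CCAAT or its reverse complement ATTGG) in capitals.
Cdk1 (chr10:69352913-69353012, minus strand): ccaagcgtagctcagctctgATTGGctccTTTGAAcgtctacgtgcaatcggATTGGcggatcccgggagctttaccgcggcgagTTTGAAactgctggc
Cdc20 (chr4:118437344-118437443, minus strand): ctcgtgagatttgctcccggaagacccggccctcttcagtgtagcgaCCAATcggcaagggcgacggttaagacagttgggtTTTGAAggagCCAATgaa
Ube2c (chr2:164769829-164769928, plus strand): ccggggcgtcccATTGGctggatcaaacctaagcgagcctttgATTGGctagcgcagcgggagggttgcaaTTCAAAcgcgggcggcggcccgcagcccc
Top2a (chr11:99024190-99024289, minus strand): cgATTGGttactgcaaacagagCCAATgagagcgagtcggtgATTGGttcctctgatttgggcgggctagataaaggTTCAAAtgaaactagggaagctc
Bub3 (chr7:131560270-131560369, plus strand): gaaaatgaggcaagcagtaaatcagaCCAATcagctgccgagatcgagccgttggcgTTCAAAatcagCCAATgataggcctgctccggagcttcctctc
Pttg1 (chr11:43425982-43426081, minus strand): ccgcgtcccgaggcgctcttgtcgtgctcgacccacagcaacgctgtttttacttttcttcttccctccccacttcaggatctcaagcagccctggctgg
Cdk1 held 2 CHR matches in this window, and Cdc20, Ube2c, Top2a and Bub3 held 1 each, between 43 and 18 bases before the start. Top2a had 3 CCAAT matches and the other 4 had 2. The Pttg1 window had neither motif. These are matches of letters and do not show that a factor binds there.

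RefSeq promoters were found for 42 of the 50 genes, over 250 bases before and 50 after the start. A CHR (TTTGAA or TTCGAA, on either strand) was present in 32 of 42, or 76.2%, against 19.4% of the 27025 promoters in the table. A CCAAT box was present in 31, or 73.8%, against 37.9% of all promoters, and 21 (50%) held 2 or more boxes, against 12.2%. Both motifs stood together in 28, or 66.7%, against 7.70% of all promoters. The E2F-like letters TTCCCGC or TTGGCGC or TTTCGCG were present in 8 of 42, or 19.0%, against 7.64%. A match to 1 of the 3 motif types is never in itself a match to another.

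**Figure D1:**
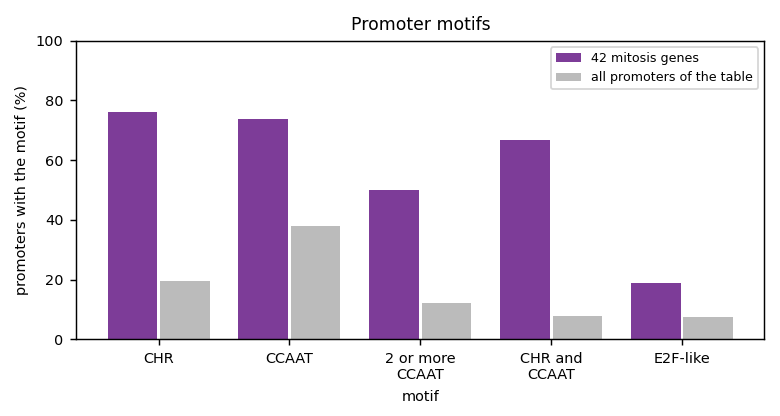
Share of promoters (percent, y axis) that hold each motif (x axis) in the 42 mitosis genes with a RefSeq promoter (purple) and in all 27025 promoters of the table (grey). CHR and CCAAT together were present in 66.7% of the mitosis genes and in 7.70% of all promoters.

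The deposited values fell into 2 sets of arrays. Within 25 pairs of arrays, 242 to 1450 of the 45101 probe sets had the same value to the last digit, and within the other 30 pairs 0 to 2 had. These pairs joined the 3 M2a arrays with M0 arrays 1 to 3, and the 3 M1 arrays with M0 arrays 4 and 5. On each probe set the mean of M0 arrays 1 to 3 equalled that of M0 arrays 4 and 5 within 8.3e-05. The sources used here do not say how this came about. The size of a difference from M0 is thus the same whichever set of M0 arrays is used, but its error is not, and M1 and M2a share no set. Results are therefore also given from a fit with the array set as a term (7 residual degrees of freedom in place of 8), chosen after the data had been seen. F4/80 itself, encoded by Adgre1, averaged 12.41 ± 0.06 in M1 and 11.74 ± 0.20 in M2a (SD, n = 3 each), and 11.19 ± 0.37 in M0 (SD, n = 5).

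Mitosis genes were lower in both cytokine states than in M0, with few exceptions. In M1 against M0, 46 of the 50 were called lower (92%), beside 17.6% of all genes, by limma at a Benjamini-Hochberg adjusted p under 0.05 over all 18193 genes. In M2a against M0, 47 of 50 were called lower (94%), beside 13.3% of all genes. Called and at least 2-fold lower were 39 in M1, beside 6.41% of all genes, and 42 in M2a, beside 4.95%. All arrays of the cytokine state lay below all M0 arrays for 46 genes in M1 (17.4% of all genes) and for 48 in M2a (13.9% of all genes). One gene, Pttg1, was called higher in M1, where 22.1% of all genes were, and none in M2a, where 18.6% were. With the array set as a term, limma called 42 lower in M1 (11.6% of all genes) and none higher (12.5% of all genes), with Aurkb, Hmmr, Kif4, Ndc80 and Pttg1 no longer called, and 47 lower in M2a (10.1% of all genes). In bulk samples like these, fewer cells in division and less of these mRNAs per cell cannot be told apart.

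The median difference of the 50 genes was -1.66 in M1 against M0 (quartiles -2.40 and -1.20) and -1.39 in M2a against M0 (quartiles -2.21 and -1.09) on the log2 scale, while the median of all genes was 0.06 and 0.07. In M1 the differences ran from -4.46 for Ube2c to 0.36 for Pttg1. In M2a they ran from -3.59 for Mki67 to 0.07 for Bub3. Called lower in both states were 45 of the 50 genes, of which 37 were at least 2-fold lower in both. The share of all genes called lower in both was not counted. It cannot exceed the 13.3% called lower in M2a, nor the 2-fold share the 4.95% called and at least 2-fold lower there. Both comparisons use the M0 arrays, so they are not independent of each other.

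**Figure D2:**
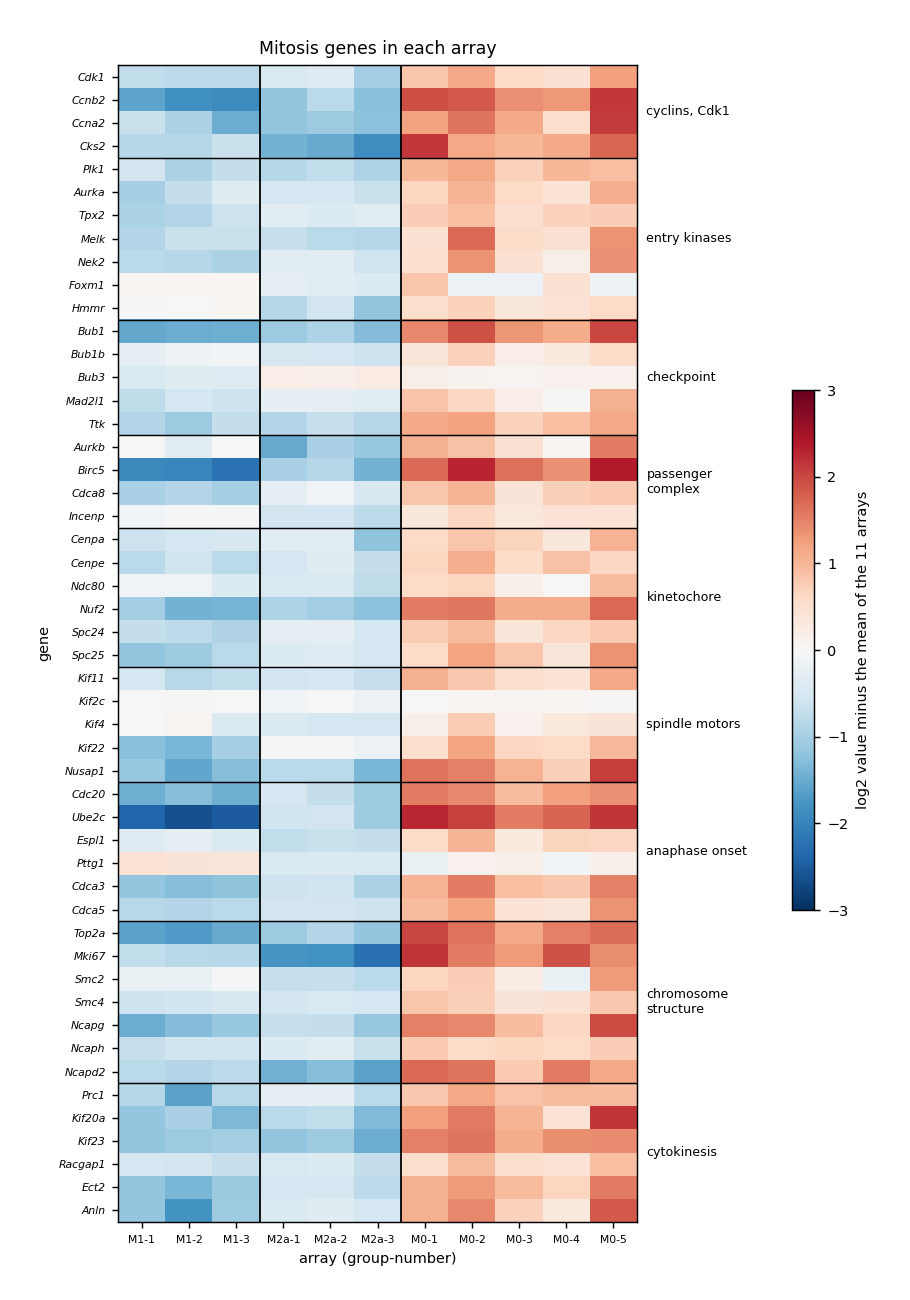
Log2 value of each of the 50 genes (rows, grouped by role) in each of the 11 arrays (columns), minus the gene's mean over the arrays; red is above and blue below that mean. The 3 M1 and 3 M2a columns are blue in most rows and the 5 M0 columns red, while Bub3, Kif2c, Pttg1 and Foxm1 are pale.

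Cyclins and their kinase were all lower. Ccnb2, a B-type cyclin that activates Cdk1, read 5.48, 5.23 and 5.16 in the M1 arrays and 5.92, 6.26 and 5.81 in the M2a arrays, against 9.0, 8.92, 8.45, 8.37 and 9.20 in the M0 arrays. No M1 or M2a array came within 2-fold of an M0 array. The difference was -3.50 ± 0.19 (SE) in M1, an 11.3-fold fall, and -2.79 ± 0.19 in M2a, a 6.93-fold fall (limma adjusted p = 9.1e-08 and 1.1e-06). Cdk1, the kinase that starts mitosis, read 7.32, 7.29 and 7.27 in M1 and 7.60, 7.67 and 7.01 in M2a, against 8.90, 9.19, 8.63, 8.53 and 9.29 in M0. The M1 and M2a arrays overlapped and both lay below M0, with falls by 1.62 ± 0.20 in M1 and by 1.48 ± 0.20 in M2a (limma adjusted p = 5.1e-05 and 0.00015). Ccna2, the cyclin of S phase and early mitosis, read 6.88, 6.60 and 6.07 in M1 and 6.36, 6.47 and 6.33 in M2a, against 8.77, 9.16, 8.69, 8.09 and 9.66 in M0. Both states lay below every M0 array, and Ccna2 fell by 2.36 in M1 and 2.49 in M2a. Cks2, a small subunit of the cyclin-Cdk complexes, read 7.95, 7.94 and 8.12 in M1 and 7.38, 7.29 and 6.94 in M2a, against 10.92, 9.97, 9.79, 9.94 and 10.52 in M0. M2a was the lowest group for Cks2, with a fall by 3.02 in M2a and by 2.22 in M1.

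The kinases and factors of mitotic entry followed, with 6 of 7 called lower in each state. Plk1, the Polo-like kinase, read 6.31, 5.91 and 6.14 in M1 and 5.99, 6.12 and 5.93 in M2a, against 7.84, 8.01, 7.56, 7.85 and 7.75 in M0. Both states lay below every M0 array, and the M0 arrays were close together. Plk1 fell by 1.68 ± 0.12 in M1 and 1.79 ± 0.12 in M2a (limma adjusted p = 8.3e-07 and 9.3e-07). Aurka, the centrosomal Aurora kinase, fell by 1.44 in M1 and 1.32 in M2a, and Tpx2, which activates Aurora A on the spindle, fell by 1.54 and 1.07 in the same order. Melk and Nek2, 2 further kinases of the G2 and M program, fell by 1.63 and 1.64 in M1 and by 1.69 and 1.19 in M2a. Hmmr, a spindle-associated hyaluronan receptor, read 6.84, 6.86 and 6.93 in M1 and 6.02, 6.30 and 5.69 in M2a, against 7.40, 7.57, 7.20, 7.31 and 7.47 in M0. It was lower by 0.51 ± 0.13 in M1 (limma adjusted p = 0.0094) and by 1.38 ± 0.13 in M2a (1.3e-05), and the M1 call was lost with the array set as a term (adjusted p = 0.060).

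Foxm1, the transcription factor that drives many of the other genes, was the member of this group that did not pass. It read 6.91, 6.90 and 6.89 in M1 and 6.53, 6.49 and 6.43 in M2a, against 7.67, 6.66, 6.64, 7.29 and 6.68 in M0. The M1 arrays lay inside the M0 range, between M0 arrays 1 and 4 and the other 3 M0 arrays. The M2a arrays lay below all M0 arrays. Its difference was -0.09 ± 0.21 in M1 and -0.51 ± 0.21 in M2a (limma adjusted p = 0.77 and 0.093). M0 arrays 1 and 4 were also the ones with the highest summed levels of neutrophil markers, and the part of other cells in this split was not tested. With the level of the hybridization controls as a covariate, its difference was 1.10 in M1 and 0.55 in M2a (limma adjusted p = 0.0021 and 0.036). The direction thus depended on this term. These controls ran from 9.64 to 9.75 in M1 and 9.79 to 9.96 in M2a, against 10.61 to 11.70 in M0. Since they did not overlap with M0, this fit cannot cleanly part the term from the group, and no rise of Foxm1 is read from it.

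**Figure D3:**
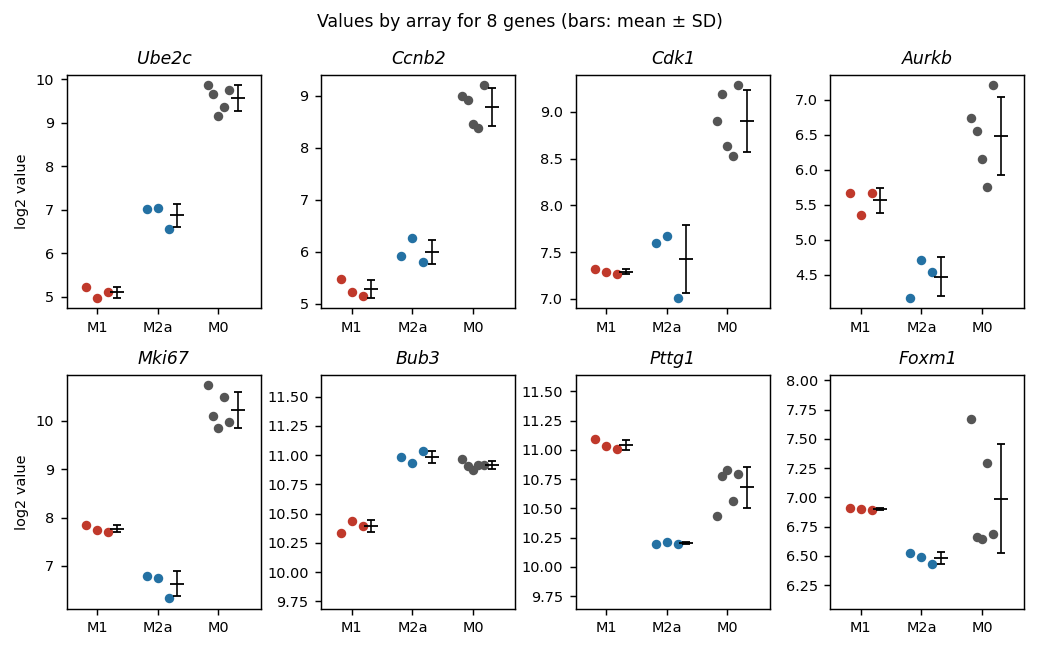
Log2 values by array (points) with mean ± SD (bars) for 8 genes in M1 (n = 3), M2a (n = 3) and M0 (n = 5); each panel has its own y axis. Ube2c, Ccnb2, Cdk1, Aurkb and Mki67 are lower in both states than in every M0 array, Bub3 is low in M1 alone, Pttg1 is high in M1 and low in M2a, and the M0 values of Foxm1 lie in 2 clusters.

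Among the roles, spindle checkpoint genes had the smallest median fall in M1. The median difference of the 5 was -1.19 in M1 and -0.96 in M2a. Bub1, a checkpoint kinase at kinetochores, had the largest fall of the 5, at 4.06, 4.12 and 4.14 in M1 and 4.52, 4.67 and 4.31 in M2a, against 7.05, 7.51, 6.93, 6.73 and 7.60 in M0. Its fall was 8.31-fold in M1 and 6.33-fold in M2a (limma adjusted p = 2.0e-07 and 1.2e-06). Ttk, the Mps1 kinase, read 4.40, 4.20 and 4.58 in M1 and 4.40, 4.59 and 4.44 in M2a, against 6.43, 6.50, 5.98, 6.18 and 6.42 in M0. It fell by 1.91 in M1 and 1.83 in M2a, with no overlap with M0. Mad2l1 and Bub1b, which both help to inhibit Cdc20, fell by 1.19 and 0.59 in M1 and by 0.83 and 0.96 in M2a.

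Bub3, the partner that brings Bub1 and Bub1b to kinetochores, behaved differently in the 2 states. Its values were 10.34, 10.44 and 10.40 in M1 and 10.99, 10.93 and 11.04 in M2a, against 10.97, 10.91, 10.88, 10.92 and 10.92 in M0. The M1 arrays lay below all others, and the M2a and M0 arrays overlapped. The difference from M0 was -0.53 ± 0.07 in M1 and 0.07 ± 0.07 in M2a (limma adjusted p = 0.00018 and 0.53). M1 was lower than M2a by 0.59 ± 0.08, with limma adjusted p = 0.00021, and 0.021 with the array set as a term. A second Bub3 probe set did not show the fall: it averaged 7.30 in M1, 7.88 in M2a and 7.11 in M0, differences of 0.20 and 0.77 from M0. In the Bub3 window printed above, the CHR letters start 43 bases before the transcription start, between CCAAT letters at 74 and 32 bases.

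The chromosomal passenger complex, which corrects wrong attachments and guides cytokinesis, was lower in all 4 subunits in both states. Birc5 (survivin) had the largest fall among them, with 4.77, 4.74 and 4.49 in M1 and 5.74, 5.86 and 5.28 in M2a, against 8.41, 8.98, 8.35, 8.08 and 9.08 in M0. Every M1 array lay below every M2a array, and both far below M0. The fall was 15.1-fold in M1 and 7.76-fold in M2a (limma adjusted p = 1.3e-07 and 2.3e-06). Aurkb, the kinase of the complex, read 5.66, 5.36 and 5.67 in M1 and 4.17, 4.71 and 4.54 in M2a, against 6.74, 6.55, 6.15, 5.75 and 7.21 in M0. Here M2a was the lower of the states: the difference was -0.92 ± 0.27 in M1 and -2.01 ± 0.27 in M2a (limma adjusted p = 0.019 and 0.00018). M0 array 4 lay within 0.1 of M1 arrays 1 and 3 for Aurkb, and with the array set as a term the M1 call was lost (adjusted p = 0.088). Incenp, the scaffold, fell by 0.49 in M1 and 1.07 in M2a, and Cdca8 (borealin) by 1.69 in M1 and 1.04 in M2a. Incenp was uncertain in M1, since its mean over all 5 probe sets differed by 0.03.

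Kinetochore genes were lower in 6 of 6 cases in both states, with a median difference of -1.49 in M1 and -1.29 in M2a. The 4 subunits of the Ndc80 complex, which grips microtubules, did not move by the same amount. Nuf2 fell by 2.68 in M1 and 2.48 in M2a, with 5.08, 4.68 and 4.71 in M1 and 5.16, 5.05 and 4.87 in M2a, against 7.64, 7.67, 7.20, 7.21 and 7.80 in M0. Ndc80 itself, at 4.89, 4.88 and 4.60 in M1 and 4.55, 4.55 and 4.26 in M2a, against 5.61, 5.65, 5.16, 4.99 and 5.95 in M0, was lower by 0.68 in M1 and 1.02 in M2a. For Ndc80 the gap between the highest M1 and the lowest M0 array was 0.1, and the M1 call was lost with the array set as a term (limma adjusted p = 0.084). Spc24 and Spc25 fell by 1.50 and 1.87 in M1 and by 1.06 and 1.29 in M2a. Cenpa, the centromeric histone, read 7.82, 7.92 and 7.95 in M1 and 8.13, 8.13 and 7.24 in M2a, against 9.01, 9.26, 9.11, 8.78 and 9.47 in M0. M2a array 3 stood apart from the other M2a arrays, and Cenpa fell by 1.23 in M1 and 1.29 in M2a. Cenpe, a kinetochore motor, fell by 1.48 in M1 and 1.28 in M2a.

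Among spindle motors and binders, 4 of 5 were lower in each state. Nusap1, which bundles spindle microtubules, fell by 2.72 in M1 and 2.39 in M2a. Kif11, the motor that separates the poles, read 5.21, 4.89 and 5.00 in M1 and 5.14, 5.20 and 5.03 in M2a, against 6.79, 6.53, 6.21, 6.14 and 6.88 in M0. The states overlapped each other below M0, and Kif11 fell by 1.48 in M1 and 1.39 in M2a. Kif22, a chromosome-arm motor, read 6.69, 6.57 and 6.95 in M1 and 7.88, 7.88 and 7.78 in M2a, against 8.48, 9.13, 8.56, 8.53 and 8.93 in M0. The 3 groups were fully separated, with M1 lowest, and Kif22 fell by 1.99 in M1 and 0.88 in M2a (limma adjusted p = 1.6e-06 and 0.0012). Kif4, a chromosome-bound motor, read 5.32, 5.40 and 4.87 in M1 and 4.88, 4.79 and 4.80 in M2a, against 5.48, 6.08, 5.42, 5.62 and 5.70 in M0. Its M1 arrays 1 and 2 lay just under the M0 range. It showed the smallest called fall in M1, at -0.46 ± 0.16 (limma adjusted p = 0.037), and this call was lost in 11 of 27 other settings, and it was lower by 0.84 in M2a. Kif2c, a microtubule depolymerase, had 6.33, 6.37 and 6.36 in M1 and 6.24, 6.37 and 6.17 in M2a, against 6.35, 6.41, 6.42, 6.41 and 6.37 in M0, which overlapped throughout. That probe set had the highest mean, but another Kif2c probe set averaged 4.09 in M1 and 4.82 in M2a, against 7.26 in M0, differences of -3.17 and -2.44. Its other 2 probe sets were lower as well, by 0.75 and 0.58 in M1.

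Genes of anaphase onset held the largest fall of either state and the only gene called higher. Ube2c, the ubiquitin-conjugating enzyme of the anaphase-promoting complex, read 5.23, 4.98 and 5.11 in M1 and 7.03, 7.03 and 6.56 in M2a, against 9.87, 9.67, 9.16, 9.36 and 9.77 in M0. The groups formed 3 separate levels. Ube2c fell 22.0-fold in M1 (-4.46 ± 0.17) and 6.47-fold in M2a (-2.69 ± 0.17), with limma adjusted p = 5.1e-09 and 5.5e-07. Cdc20, which activates the complex, read 5.67, 5.87 and 5.67 in M1 and 6.63, 6.42 and 6.07 in M2a, against 8.68, 8.59, 8.06, 8.37 and 8.52 in M0, a 6.52-fold fall in M1 and a 4.20-fold fall in M2a. Both carry CHR and CCAAT letters in the windows printed above. Espl1 (separase, which cuts cohesin) read 5.19, 5.32 and 5.15 in M1 and 4.83, 4.92 and 4.86 in M2a, against 6.19, 6.61, 5.88, 6.25 and 6.21 in M0. The 3 groups were separate, and Espl1 fell by 1.00 in M1 and 1.35 in M2a. Cdca3 fell by 2.37 in M1 and 1.88 in M2a, and Cdca5 (sororin, which protects cohesion) by 1.69 and 1.42.

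Pttg1 (securin, the inhibitor of separase) moved in opposite directions. It read 11.09, 11.03 and 11.01 in M1 and 10.20, 10.21 and 10.20 in M2a, against 10.43, 10.78, 10.83, 10.57 and 10.80 in M0. All M1 arrays lay above and all M2a arrays below the M0 range. The difference was 0.36 ± 0.10 in M1 and -0.48 ± 0.10 in M2a (limma adjusted p = 0.016 and 0.0044), and M1 exceeded M2a by 0.84 ± 0.12 (0.00018). With the array set as a term the rise in M1 was not called (adjusted p = 0.092), while the fall in M2a (0.020) and the difference between the states (0.015) were. With the hybridization controls as a covariate the M1 difference was -0.0769 (limma adjusted p = 0.66). All 3 Pttg1 probe sets had this pattern, with differences of 0.36, 0.97 and 0.70 in M1 and of -0.48, -0.57 and -0.63 in M2a. Pttg1 and its target Espl1 thus differed in sign in M1, where Espl1 was lower in every array than in M0.

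Chromosome structure genes included the proliferation marker Mki67, whose protein Ki-67 coats mitotic chromosomes. Mki67 read 7.84, 7.75 and 7.71 in M1 and 6.80, 6.76 and 6.34 in M2a, against 10.73, 10.10, 9.85, 10.49 and 9.96 in M0. M2a was the lowest group, with no overlap. The fall was 5.49-fold in M1 and 12.1-fold in M2a (limma adjusted p = 1.6e-06 and 1.4e-07). With the level of the hybridization controls as a covariate it was 2.90-fold in M1 and 6.82-fold in M2a (limma adjusted p = 0.00095 and 1.4e-05). Top2a, the topoisomerase that untangles sister chromatids, read 6.52, 6.42 and 6.62 in M1 and 7.04, 7.25 and 6.96 in M2a, against 10.12, 9.74, 9.27, 9.63 and 9.79 in M0, a 9.13-fold fall in M1 and a 6.18-fold fall in M2a. Ncapg, a condensin I subunit, read 3.08, 3.25 and 3.43 in M1 and 3.86, 3.83 and 3.43 in M2a, against 6.08, 5.99, 5.47, 5.18 and 6.51 in M0. Ncapg fell by 2.60 in M1 and 2.14 in M2a, and the other 2 subunits of that complex, Ncapd2 and Ncaph, by 2.18 and 1.30 in M1 and by 2.81 and 1.14 in M2a. Of the ATPase subunits shared by both condensins, Smc4 read 8.24, 8.27 and 8.39 in M1 and 8.33, 8.42 and 8.37 in M2a, against 9.69, 9.59, 9.25, 9.33 and 9.69 in M0. It fell by 1.21 in M1 and 1.14 in M2a, with the states overlapping each other below M0. Smc2 had 7.22, 7.23 and 7.42 in M1 and 6.75, 6.75 and 6.64 in M2a, against 8.10, 8.19, 7.66, 7.23 and 8.73 in M0, and M0 array 4 overlapped with M1. Its difference was -0.69 ± 0.26 in M1, which did not pass (limma adjusted p = 0.051), and -1.27 ± 0.26 in M2a (0.0029). The M1 difference passed in 12 of 28 other settings, and the other 4 Smc2 probe sets differed by -0.95 to -1.83 in M1.

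All 6 cytokinesis genes were lower in both states, with a median of -2.37 in M1 and -1.60 in M2a. Kif23, a motor of the centralspindlin complex, had 5.41, 5.52 and 5.58 in M1 and 5.43, 5.53 and 5.12 in M2a, against 8.12, 8.21, 7.71, 8.01 and 8.01 in M0. The M1 and M2a arrays of Kif23 overlapped, at -2.51 ± 0.13 and -2.65 ± 0.13 from M0 (limma adjusted p = 5.1e-08 and 6.4e-08). Its partner Racgap1 fell by 1.25 in M1 and 1.20 in M2a. Prc1, a microtubule bundler of the central spindle, read 6.17, 5.41 and 6.18 in M1 and 6.72, 6.72 and 6.21 in M2a, against 7.83, 8.18, 7.86, 7.97 and 7.94 in M0. M1 array 2 was the lowest for Prc1, which fell by 2.04 in M1 and 1.40 in M2a, and the motor Kif20a fell by 2.44 in M1 and 2.23 in M2a. Ect2, the activator of RhoA, read 4.28, 4.09 and 4.34 in M1 and 4.96, 4.94 and 4.68 in M2a, against 6.54, 6.74, 6.42, 6.11 and 7.02 in M0. It fell by 2.33 in M1 and 1.71 in M2a in 3 separate levels, and Anln (anillin, a scaffold of the contractile ring) by 2.41 and 1.50.

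**Figure D4:**
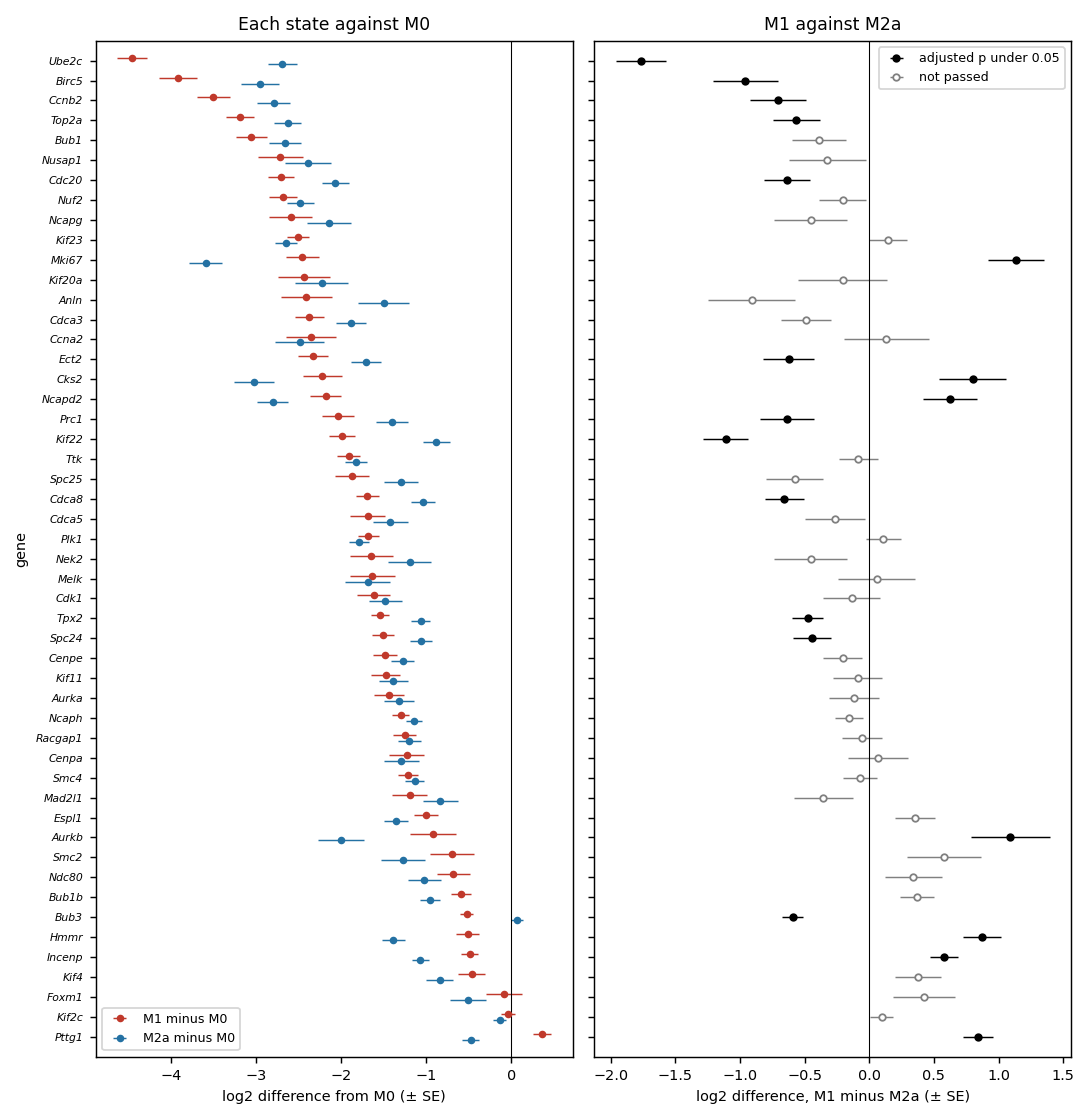
Log2 difference ± SE of each of the 50 genes (rows, ordered by M1 minus M0): left, M1 minus M0 (red) and M2a minus M0 (blue); right, M1 minus M2a, filled where limma's adjusted p was under 0.05 without the array set as a term. Ube2c is at the top with -4.46 in M1, and Pttg1 at the bottom with 0.36 in M1 and -0.48 in M2a.

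Set against each other, M1 and M2a had differences of both signs. The median of M1 minus M2a over the 50 genes was -0.15 (all genes -0.02), with 31 genes below 0 and 19 above. Limma called 12 lower in M1 than in M2a, 24% of the members beside 15.6% of all genes, and 7 higher, 14% beside 13.7% of all genes. With the array set as a term, 3 of the 50 were called lower, beside 6.15% of all genes, and 2 of the 50 higher, beside 5.56%. Neither share was above that of all genes. The 3 lower were Ube2c (-1.77, adjusted p = 0.0030), Kif22 (-1.11, 0.025) and Bub3, and the 2 higher were Hmmr (0.87, 0.038) and Pttg1. For Kif22 the difference shrank to as little as -0.15 among 28 alternatives, and the call was lost in 1. Mki67 (1.14), Aurkb (1.09) and Birc5 (-0.96) were among those called without the term alone, and their adjusted p with it was 0.058, 0.21 and 0.18. The count is therefore reported with and without the term, since no M1 array lies in a set with an M2a array.

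The spread among M0 arrays was larger than in the cytokine states. The median SD of the 50 genes was 0.11 in M1 and 0.15 in M2a, against 0.30 in M0, and over all genes it was 0.08, 0.09 and 0.24 in the same order. Taken as the median over genes, each centred on its mean over all arrays, the level was -0.80, -0.86 and -0.79 in the M1 arrays and -0.55, -0.54 and -0.80 in the M2a arrays, against 0.84, 1.16, 0.61, 0.56 and 1.15 in the M0 arrays. M2a array 3 was thus lower than the other M2a arrays and level with M1. Among the M0 arrays, array 5 held the highest value of 21 genes and array 2 of 17, while arrays 3 and 4 held the lowest value of 22 genes each. Of the 50 genes, 35 had several probe sets, and 56 of their 67 other probe sets were lower in M1 and 56 in M2a.

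The mean levels of neutrophil, progenitor, mast cell and eosinophil, and lymphocyte markers were also below M0 in both states. The stromal level was below M0 in M2a and overlapped with M0 in M1, and the other marker lists were mixed. The part of other cells in the result was not tested. The mean log2 level of 11 neutrophil-lineage genes was 7.26 to 7.43 in M1 and 5.38 to 5.47 in M2a, against 11.42 to 12.88 in M0. These genes were lower in 10 of 11 cases in M1 and 11 of 11 in M2a. The 8 progenitor genes averaged 4.82 to 4.91 in M1 and 5.55 to 5.67 in M2a, against 6.72 to 7.57 in M0, with 7 called lower in M1, and 4 lower and 2 higher in M2a. Myb, a factor of dividing progenitors, had the largest fall of the 8, by 6.20 in M1 and by 5.96 in M2a. The median of the 8 was -1.59 in M1 and -0.58 in M2a, and Flt3 and Sox4 were the 2 called higher in M2a. For 8 mast cell and eosinophil genes the levels were 4.09 to 4.23 in M1 and 4.47 to 4.65 in M2a, against 7.03 to 8.94 in M0, and all 8 were lower in both states. Within M0, the array highest in neutrophil, progenitor and mast cell markers was array 1, while the arrays with most of the highest mitosis values were 5 and 2. Array 1 held the highest value of 10 mitosis genes, among them Mki67, Ube2c, Top2a, Cks2 and Cdc20. Array 4 came next after array 1 in neutrophil (12.10) and progenitor markers (7.08). It had the lowest median mitosis level of the M0 arrays (0.56) and the highest value of 0 mitosis genes. Of 5 stromal genes, 1 was lower in M1 and 5 were in M2a. Their mean level was 5.53 to 5.58 in M1 and 3.91 to 4.18 in M2a, against 5.54 to 7.02 in M0. Of 4 lymphocyte genes, 2 were lower and 1 was higher in each state. The lymphocyte level was 4.50 to 4.74 in M1 and 4.89 to 4.99 in M2a, against 5.44 to 6.25 in M0. Of 4 erythroid genes, 2 were higher in M1. For 8 macrophage genes the level was 11.86 to 11.87 in M1 and 9.99 to 10.33 in M2a, against 10.63 to 11.37 in M0. Of the 8, 4 were called higher and 1 lower in M1. In M2a, 5 were called lower and only Adgre1 higher. The control probe sets differed too: the 18S rRNA level was 6.25 ± 0.08 in M1 and 8.56 ± 0.07 in M2a (SD, n = 3 each), against 9.25 ± 0.27 in M0 (SD, n = 5), and the actin 5′ minus 3′ difference was 0.15, -0.57 and -0.61 in the same groups. The poly-A spike controls averaged 5.32 ± 0.05 in M1 and 6.02 ± 0.09 in M2a, against 8.86 ± 0.44 in M0, and the hybridization controls 9.71 ± 0.06 in M1 and 9.86 ± 0.09 in M2a, against 11.15 ± 0.52 in M0. The actin difference entered an alternative fit as a covariate, in which 46 of the mitosis genes were lower in M1 and 47 in M2a. Of all 18193 genes, 3327 were lower in M1 and 3372 in M2a in that fit. With the hybridization controls as the covariate, 46 were lower and 1 (Foxm1) was higher in M1, and 47 were lower and 1 (Foxm1) was higher in M2a. Of all genes, 4340 were then lower and 4311 higher in M1, and 4381 lower and 4627 higher in M2a. These counts of lower genes exceed the 3195 in M1 and 2424 in M2a of the main fit. Because these controls did not overlap between M0 and either state, that fit cannot cleanly part them from the group. The part of the 18S and poly-A levels was not tested.

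Beyond the 50 genes, other genes of the cell cycle were counted from lists. The counts stand beside 17.6% of all genes called lower and 22.1% called higher in M1, and 13.3% lower and 18.6% higher in M2a. Of 76 further mitosis genes, 45 were lower and 4 higher in M1 and 49 were lower and 1 higher in M2a, with medians of -0.47 and -0.71. Cenpf, a kinetochore protein, was lower by 2.75 in M1 and 2.47 in M2a, and Ncapg2, a condensin II subunit, by 2.80 and 2.39. Esco2, an acetyltransferase that sets cohesion in S phase, was lower by 1.55 in M1 and 3.25 in M2a. Zwint, a kinetochore scaffold protein, was higher by 1.38 in M1 and lower by 0.69 in M2a (limma adjusted p = 0.00040 and 0.031), the same signs as Pttg1. Of 10 cohesin genes, whose rings Pttg1 and Espl1 act on, 2 were lower and 1 was higher in M1, and 6 were lower in M2a. A list of 15 genes held core subunits of the anaphase-promoting complex, with which Ube2c and Cdc20 work, and Fzr1, an activator like Cdc20. Its medians were 0.24 in M1 and 0.02 in M2a. In M1, 1 of these 15 was lower and 5 were higher, Fzr1 among them. In M2a 2 were lower, and 1, Fzr1, was higher.

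Of 27 DNA replication genes, 19 were lower and none higher in each state, with medians of -0.83 in M1 and -0.95 in M2a. Rrm2, a ribonucleotide reductase subunit of S phase, read -4.81 ± 0.16 in M1 and -2.80 ± 0.16 in M2a against M0 (limma adjusted p = 1.4e-09 and 2.3e-07), a larger fall in M1 than in M2a, as for Ube2c. Mcm7, a subunit of the replicative helicase, was lower by 3.48 in M1 and 2.43 in M2a. Among 13 G1 cyclin, Cdk and E2F genes, 4 were lower and 2 higher in M1 and 5 lower and 1 higher in M2a. E2f2, an activating E2F, was lower by 3.46 in M1 and 2.29 in M2a, while Ccne1 (cyclin E1) was higher by 1.57 in M1 and Ccnd1 (cyclin D1) by 0.77 in M2a. A list of 16 genes held Cdk inhibitors, other brakes and Mdm2, which opposes a brake and is not one itself. Of these 16, 8 were lower and 5 higher in M1, Mdm2 among the higher, and 5 were lower and 2 higher in M2a. Cdkn1a (p21), an inhibitor of cyclin-Cdk complexes, was called higher in both states, at 11.27 ± 0.13 in M1 and 10.46 ± 0.05 in M2a (SD, n = 3 each), against 8.78 ± 0.42 in M0 (SD, n = 5). That was 2.49 ± 0.20 above M0 in M1 and 1.68 ± 0.20 in M2a (SE, limma adjusted p = 1.7e-06 and 6.4e-05). Of 12 genes of the DREAM and MuvB complexes, which act at the CHR, 4 were lower and 2 higher in M1, and 2 were lower in M2a. Among them Mybl2, the B-MYB factor, was lower by 0.67 in M1 and 0.63 in M2a.

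**Figure D5:**
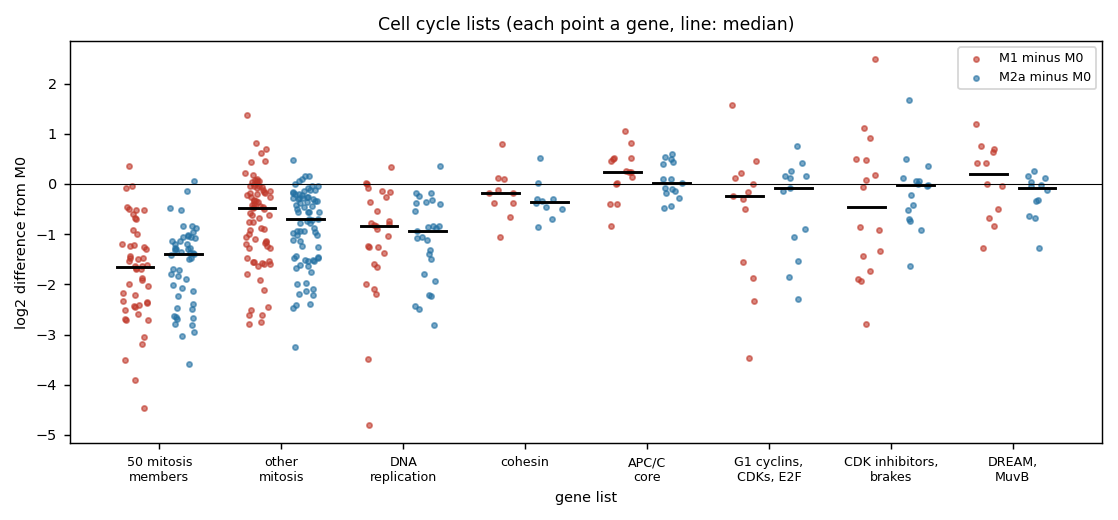
Log2 difference from M0 (y axis) of each gene (points) in 8 cell cycle lists (x axis), M1 minus M0 in red and M2a minus M0 in blue, with the list median as a line. The 50 mitosis members have medians of -1.66 and -1.39. The list labelled APC/C core (anaphase-promoting complex), which also holds the activator Fzr1, has 0.24 and 0.02.

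Promoter motifs and size of change were set side by side in the 42 genes with a promoter. The 28 genes with CHR and CCAAT had a median difference of -1.89 in M1 and -1.44 in M2a. The 7 with 1 of the motifs had -1.64 and -1.28, and the 7 with neither had -1.63 and -1.69. Both groups without the pair of motifs are small, and the ranges overlapped: genes with both motifs ran from -4.46 to -0.46 in M1, and those with neither from -3.91 to 0.36. The genes with neither motif in the window were Birc5, Mad2l1, Melk, Ncaph, Nuf2, Nusap1 and Pttg1, so a strong fall (Birc5, Nuf2, Nusap1) and the value above 0 in M1 (Pttg1) both occurred without these letters.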

How the data were processed

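Each of the 11 arrays was deposited by the authors as log2 values of 45101 probe sets. Per the submitters' processing notes, Partek was used (version not given). How background was corrected, probes summarised and arrays normalized is not given in the sources used here. Values ran from 0.73 to 14.49, with array medians of 5.14 to 5.34. The number of arrays limits the precision. Of the probe sets, 34958 had 1 gene symbol (34754 updated through Entrez identifiers), 932 had several and were left out, and 18193 genes were kept, each through the probe set of highest mean. Low values were not filtered. Group differences came from limma 3.58.1 in R 4.3.3 (lmFit, eBayes, a mean per group, all 11 arrays, 8 residual degrees of freedom), with Benjamini-Hochberg adjustment over all genes and a threshold of 0.05. All 50 measured members are named, with values by array for the main genes of each role. Of the other cell cycle genes, the 2 largest called differences in each direction against M0 are named, and Cenpf, Ncapg2, Zwint, E2f2 and Mybl2 were added after their values were seen. The script was tested on simulated data. The members, lists and tests were chosen with earlier results of these data known, and the array set as a term was added after the data had been seen. The alternatives, 28 for most results, covered normalization, probe set choice, filters, variance models, arrays left out, a replicate block, covariates from control probe sets and the array set. Promoters came from RefSeq (GRCm38.p6), and the array's own coordinates were not used.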

Additional observations from a re-analysis of the deposited data

Results flagged for a closer look

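Bub3 and Pttg1 differed between the states, with differences from M0 of opposite sign in M1 and M2a. For Bub3, M1 minus M2a was -0.593 (limma adjusted p = 0.00021), from a difference of -0.53 in M1 and 0.07 in M2a against M0, of which the second was not called. For Pttg1, M1 minus M2a was 0.84 (limma adjusted p = 0.00018), from 0.36 in M1 and -0.48 in M2a. With the array set as a term, both remained called between the states, at adjusted p = 0.021 for Bub3 and 0.015 for Pttg1. None of the 50 genes had an M0 array beyond the critical value of Dixon's test for 5 arrays (0.71). That test could not have flagged any. The M0 arrays of either array set had almost the same mean on each probe set. Such equal means keep the gap of an extreme M0 array, as a share of the range, below 0.71. No conclusion about outlying M0 arrays is therefore drawn from it.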

How the results depend on the processing

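Against M0, 40 of the 47 calls in M1 and 45 of the 47 in M2a were kept under every alternative. In M1, Aurkb, Bub3, Kif4, Incenp, Ndc80, Pttg1 and Hmmr were lost in at least 1, and in M2a Mad2l1 and Pttg1 were. Between M1 and M2a, 3 of 19 were kept (Pttg1, Ube2c and Hmmr). Smc2 was gained in M1 in 12 of 28 alternatives. The cause of these changes was not tested. With hybridization controls as covariate, 19 of the 47 called members in M1 and 16 of 47 in M2a changed in fold by over 1.5 times, all toward a larger fall except Mki67. The median of M1 minus M0 was -1.36 with the mean of all probe sets, -1.98 with the probe set of largest variance and -1.98 with the actin 5′ minus 3′ difference as a covariate. That of M2a minus M0 was -1.75 with the largest variance and -1.94 with hybridization controls as covariate. That of M1 minus M2a was -0.50 with the actin covariate. For M1 against M2a, the count of changed members was 36 with array weights, 33 with only the 2 groups fitted and 5 with the array set as a term. The calls over all 18193 genes moved in the same direction. They were 6021 lower and 5321 higher with array weights, and 5443 and 4914 with only the 2 groups. With the array set they were 1118 and 1011, and in the main fit 2841 and 2500. In the main fit, 4 members were changed at least 2-fold in M1 against M2a. Of these, 2 were lower and 2 higher, 4% of the members each, beside 5.47% and 5.51% of all genes. The count became 7 with the largest variance, 12 with the actin covariate and 2 with the array set. The share of all genes changed at least 2-fold was not counted for these alternatives.

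Leaving out each array in turn gave 45 to 48 changed members in M1 against M0 and 47 in M2a against M0. Of all 18193 genes, 2494 to 3719 were then called lower and 2897 to 4738 higher in M1. In M2a, 1849 to 2751 were called lower and 2312 to 4078 higher. M1 against M2a had 9 to 23 changed members, while 2075 to 3270 of all genes were called lower and 1852 to 2922 higher. There, leaving out M1 array 1, 2 or 3 gave 11, 12 or 10 members, and leaving out M2a array 1 or 2 gave 9 or 10. The labels give same-numbered arrays of different groups no tie beyond the number. In their deviations, same-numbered arrays correlated at 0.25, 0.04 and 0.17 for M1 and M0, and differently numbered ones at -0.244 to 0.221. For M2a and M0, same-numbered arrays correlated at -0.04 to 0.01 and differently numbered ones at -0.035 to 0.039. With the replicate number as a replicate block, 47 members were lower and 1 higher in M1, and 47 were lower in M2a. In M1 against M2a, 15 were lower and 10 higher. Of all 18193 genes, that fit called 3491 lower and 4532 higher in M1, and 2700 lower in M2a. Between M1 and M2a it called 3628 lower and 3335 higher.

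Signs turned for Bub3 in M1 minus M0 (0.20 without _x_at and _s_at probe sets, and likewise with the largest variance), Incenp (0.032, mean of probe sets), Pttg1 (-0.0769, hybridization controls) and Foxm1 (1.10 with hybridization controls, and 0.24 without M0 arrays 1 and 4, its 2 highest M0 arrays, so that the sign follows from which arrays are left out). Foxm1 in M2a minus M0 was 0.55 with hybridization controls. In M1 minus M2a, Ccna2 was -1.27 (largest variance) and -0.74 (actin), Kif2c -0.73 (largest variance), Cdca8 0.0705 and Cks2 -0.0381 (without _x_at and _s_at probe sets, and for Cks2 with the largest variance).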
